A study of Arabidopsis thaliana with 6 samples.

Results

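The 200 most abundant transcripts of oxygen-starved Arabidopsis thaliana wild type were followed into 35S:PCO1 plants. Abundance was taken as the mean log2 signal of the 3 wild-type arrays. The members are the 200 probe sets (the sets of short oligonucleotides that each measure 1 transcript or a few similar ones) with the highest such mean. Array controls, plastid-encoded genes and the single locus AT4G27450 were left out, so 200 of 22668 eligible probe sets, or 0.882%, were members. Of these, 58 measure 1 named gene each, 6 match several genes, and 136 have no entry in the platform annotation and are described by their values only. The functions below therefore describe 58 genes, a minority of the members.

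All 6 samples had been kept in darkness at 5% oxygen for 4 h, starting 2 h after the beginning of an 8 h light period, and 3 arrays were made from each of the genotypes. One group was wild type, and the other was 35S:PCO1, whose PCO1 gene (plant cysteine oxidase 1) is overexpressed from a viral promoter active in most tissues; the number of independent lines is not given in the labels. The sample characteristics give rosettes of 4 weeks, whereas the extraction protocol gives entire plants of 5 weeks. No plants in air are analysed here, so nothing below measures an effect of oxygen shortage or darkness, and in whole tissue fewer cells of a type and less RNA per cell cannot be told apart.

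Green tissue devotes much of its messenger RNA to photosynthesis, whose nuclear-encoded proteins are made in the cytosol and imported into the chloroplast, and to the ribosomes and factors that make proteins. When oxygen runs short, plants save energy: group VII ethylene response factors, which PCO enzymes mark for degradation while oxygen is present, then switch on fermentation and other hypoxia genes, while much of the abundant messenger RNA is held back from translation. RNA arrays measure the amount of a transcript and do not show whether it is translated.

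The named members were led by photosynthesis. Thylakoid and light-reaction genes made up 11 of the 58, and no named member belonged to the core hypoxia response. A list of loci and keywords placed 21 of the 58 genes in a functional class, and the remaining 37 were given a role, where one is known, after their values had been seen. In that list the photosynthetic light reactions had 8 nuclear probe sets with 1 gene, of which 7 were members (87.5%), against 0.431% of all eligible probe sets with 1 gene. The exception was LHCB4.3, a minor antenna gene, at rank 4340 with a wild-type mean of 8.02. The class of cold and drought proteins gave 4 members of 15, the Rubisco and Calvin-Benson class 1 of 4, photorespiration 1 of 4, antioxidants 3 of 37, sugar and organic acid metabolism 3 of 28, dark and sugar starvation 1 of 6, and ubiquitin and proteolysis 1 of 76. The core hypoxia list gave none of the 25 genes matched, the first of which was AT3G10020 at rank 1489. The left-out locus AT4G27450 is also on that list and lay above the level of rank 200. Hypoxia genes whose probe sets have no entry in the annotation could not be matched, so their ranks are not known here. The list's class for the cytosolic ribosome held 1 gene, which was no member, since the gene table used here has few descriptions, so its counts miss the ribosomal genes named below. The light-reaction class likewise misses PSB27, AT2G26500, AT1G51400 and AT4G01150, and LHCB4.1, LHCB4.2 and LHCB4.3 in it are paralogues. Because the list was chosen with earlier results of these data known, the shares describe the members and test nothing.

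Rank depends on how well each probe set binds its target as well as on the amount of RNA. Rank and level are therefore used only to choose and describe the members, and levels of different genes are not compared. The wild-type means of the members ran from 11.56 to 13.76 on the log2 scale, with a median of 12.11, where the median of all 22746 tested probe sets was 5.89. On each array between 10 and 13 members lay within 0.5 of the highest value. At the edge, the last 3 members were AT4G05150, AT5G19510 and AT4G27090, with wild-type means of 11.56, 11.56 and 11.56. Just outside were PRK, the phosphoribulokinase of the Calvin-Benson cycle, at 11.545, AT1G67430 at 11.54 and an unlisted probe set at 11.52.

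The members differed little between the genotypes. The difference on the log2 scale, 35S:PCO1 minus wild type, ran from -0.26 to 0.23 over the 200 members, which is 1.2-fold lower to 1.17-fold higher, with a median of -0.0033 and quartiles at -0.059 and 0.046. Over all tested probe sets the median change was -0.012, and the range was -3.13 to 2.72. Limma called none of the 200 members at an adjusted p under 0.05 (Benjamini-Hochberg over all probe sets), where it called 60 of all tested probe sets (0.264%), 0.0703% higher and 0.193% lower; with so low a background, a count of 0 in 200 is near it and is no result by itself. That holds as well for each smaller set below in which none was called. The lowest adjusted p of a member was 0.217. At an unadjusted p under 0.05 there were 17 members, or 8.5%, against 10.4% of all probe sets, and 6 of them were higher and 11 lower (3.0% and 5.5%, against 3.53% and 6.85%).

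A missed threshold does not show that a level stayed the same, so the width of each interval was used for that. The moderated 95% interval of the change lay within 0.5 of 0, or within 1.41-fold, for all 200 members, against 96.2% of all probe sets. It lay within 0.25 of 0 for 133 members (66.5%, against 54.5% of all) and within 0.2 for 87 (43.5%, against 28.4%). The intervals extended from 0.12 to 0.29 to either side of the estimate, so changes smaller than that could not be told from 0 here. The difference between genotypes was smaller than the pooled SD of the 3 arrays per group in 117 members (58.5%), a lower share than the 63.2% of all probe sets. Because the wild-type values chose the members, their changes lean slightly downward by construction. Choosing 200 by the 35S:PCO1 mean gave a median change of 0.0089, and choosing by all 6 arrays gave 0.0017.

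**Figure D1:**
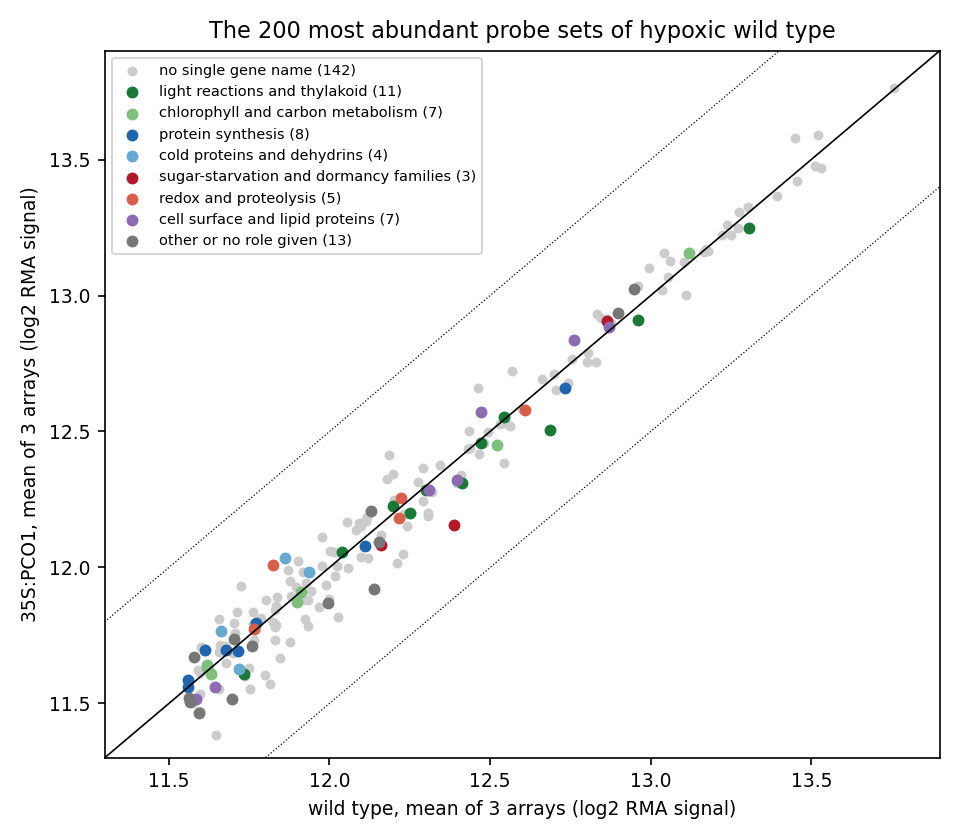
Each point is 1 of the 200 members, with the wild-type mean of 3 arrays on the x axis and the 35S:PCO1 mean of 3 arrays on the y axis (log2 RMA signal), coloured by role. The solid line marks equal signal and the dotted lines a log2 change of 0.5, and all members lie between the dotted lines, with changes from -0.26 to 0.23.

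Membership itself was nearly the same in 35S:PCO1. Of the 200 members, 190 (95% of either list) were also among the 200 highest by the 35S:PCO1 mean, and 169 were among the highest 200 on each of the 6 arrays. Of the first 20 by wild type, 18 were among the first 20 in 35S:PCO1, as were 48 of the first 50 and 95 of the first 100. The 10 that left had stood at rank 171 or further down in wild type and reached rank 248 at most. Those with a name were AT1G62480, AT5G14120, AT5G11420, AT4G32340 and AT4G05150. Of the 10 that entered, PRK and LCR69, a small cysteine-rich peptide gene of the defensin-like family, have a name. PRK, just below the edge in wild type, was at rank 173 in 35S:PCO1, where its mean was 0.13 higher on the log2 scale (SE 0.084, limma adjusted p = 0.658), and its groups overlapped. The lists chosen from each genotype share no arrays, but both hold the same probe sets with the same binding properties.

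Thylakoid genes formed the most numerous role, with 11 named members. LHCB4.1, an antenna protein that links the outer light-harvesting trimers to photosystem II, had a signal of 13.32, 13.29 and 13.32 in wild type replicates 1, 2 and 3 and of 13.29, 13.19 and 13.27 in 35S:PCO1. The groups overlapped by little, and the log2 change was -0.056 (SE 0.058, 95% interval -0.19 to 0.075). Its paralogue LHCB4.2 had 12.60, 12.74 and 12.72 in wild type and 12.53, 12.48 and 12.51 in 35S:PCO1. All 35S:PCO1 arrays of LHCB4.2 lay below all wild-type arrays, the change was -0.18 (SE 0.061), and the adjusted p of 0.368 did not pass. A lower mean in 35S:PCO1, with an interval that just reaches 0, was seen outside the members in LHCB4.3, at -0.19 (SE 0.084, 95% interval -0.38 to 0.00070, adjusted p = 0.483). These paralogues have similar sequences, and cross-hybridisation between them was not tested.

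Photosystem I was represented by PSAE-1, a stromal subunit near the ferredoxin docking site, and PSAN, a lumenal subunit that helps plastocyanin dock. PSAE-1 had 12.98, 12.99 and 12.91 in wild type and 12.91, 12.88 and 12.95 in 35S:PCO1, and its arrays overlapped (change -0.048, SE 0.058). PSAN had 12.48, 12.39 and 12.37 against 12.29, 12.25 and 12.39, again with overlap (change -0.10, SE 0.065). Both intervals lay within 0.5 of 0.

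Photosystem II was represented by small or assembly subunits. PSBY and PSBW, membrane proteins of low mass, had changes of -0.013 (SE 0.071) and 0.018 (SE 0.068). PSB27, which acts in the assembly and repair of photosystem II, had a change of -0.051 (SE 0.058). AT1G51400, a photosystem II protein of low mass, had 11.78, 11.75 and 11.67 in wild type and 11.57, 11.60 and 11.66 in 35S:PCO1, so its groups did not overlap, by a narrow margin (change -0.12, SE 0.060, adjusted p = 0.528).

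The rest of the thylakoid set passes electrons, makes ATP or shapes the membrane. AT2G26500, the PetM subunit of the cytochrome b6f complex, had a change of -0.014 (SE 0.067). ATPC1, the gamma subunit of the chloroplast ATP synthase, had 0.027 (SE 0.060). AT4G01150 (CURT1A), which bends thylakoid membranes at the grana margins, had 0.012 (SE 0.062). Across the 11 thylakoid genes the median change was -0.048, with 8 values below 0 and none called. The median of all probe sets was -0.012, and 55.2% of all and 51.5% of the members had values below 0. This role was completed after values were seen, and choosing by wild type leans changes downward. A shared decrease was not tested.

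Carbon fixation and pigment synthesis added further chloroplast genes. RCA, Rubisco activase, which frees the carboxylating enzyme of inhibitory sugars, had 13.10, 13.12 and 13.13 in wild type and 13.19, 13.13 and 13.15 in 35S:PCO1. Its wild-type SD was 0.017, and the groups overlapped only in that 35S:PCO1 replicate 2 lay just below wild type replicate 3 (change 0.039, SE 0.055, 95% interval -0.087 to 0.17). AT1G74470, the geranylgeranyl reductase that makes the side chain of chlorophyll, had -0.073 (SE 0.058). PORB, the light-dependent protochlorophyllide oxidoreductase, had -0.024 (SE 0.079). HPR, the peroxisomal hydroxypyruvate reductase of photorespiration, had -0.0018 (SE 0.077), with a sign that turned when the arrays were centred on their medians (0.0059) or quantile-normalized again (0.0022).

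Further genes of these pathways were matched below the chosen ranks. Outside the members, the Calvin-Benson genes SBPASE, sedoheptulose bisphosphatase, and AT1G56190, a phosphoglycerate kinase, had changes of 0.024 (SE 0.058) and 0.0048 (SE 0.064). Of the photorespiratory glycine decarboxylase, AT1G32470 (H protein) had -0.0009 (SE 0.069) and AT1G11860 (T protein) 0.063 (SE 0.067). None of the 4 Calvin-Benson, 4 photorespiration and 8 light-reaction probe sets was called in either direction, where 0.264% of all tested probe sets were.

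Cytosolic sugar metabolism gave 3 members. TPI, the cytosolic triose phosphate isomerase of glycolysis, had 11.60, 11.63 and 11.63 in wild type and 11.62, 11.62 and 11.65 in 35S:PCO1. This was the smallest wild-type SD of the named members, 0.015, and the change was 0.010 (SE 0.054, 95% interval -0.11 to 0.13). GAPC2, a cytosolic glyceraldehyde-3-phosphate dehydrogenase of glycolysis, had 11.60, 11.60 and 11.65 against 11.67, 11.60 and 11.65 (change 0.025, SE 0.056). cICDH, the cytosolic isocitrate dehydrogenase that yields NADPH, was less even, with 11.85, 11.72 and 12.13 in wild type (change -0.025, SE 0.099).

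**Figure D2:**
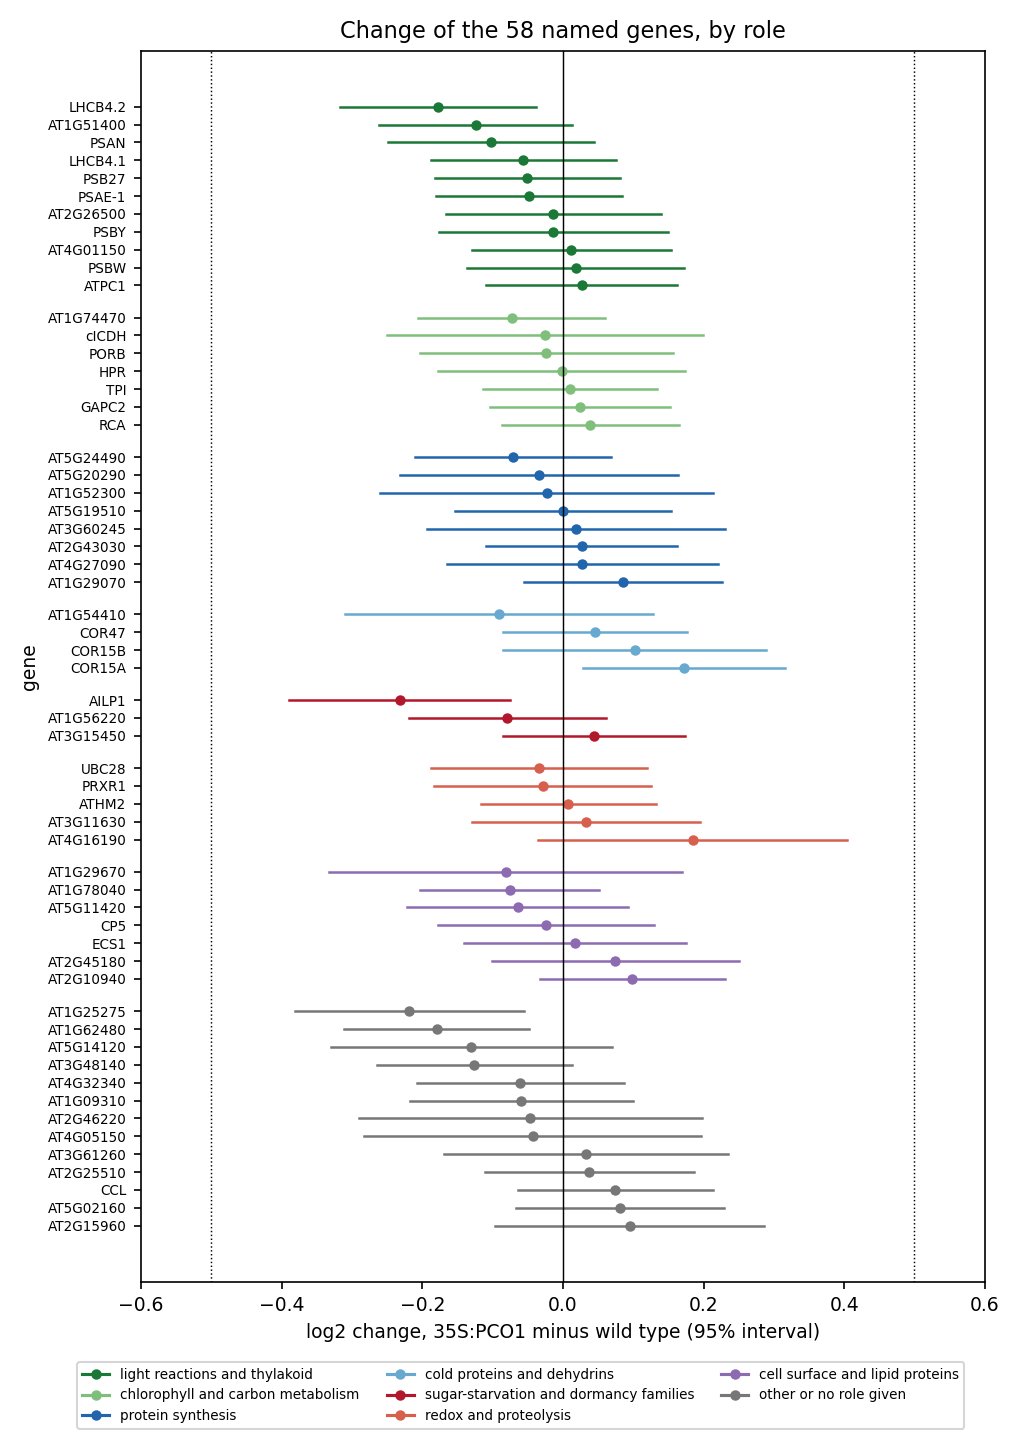
The change on the log2 scale (35S:PCO1 minus wild type, x axis) is drawn for each of the 58 named genes (y axis) with its moderated 95% interval, coloured and grouped by role, and the dotted lines mark 0.5 to either side of 0. All intervals lie between the dotted lines, and those of LHCB4.2, AILP1, AT1G25275, AT1G62480 and COR15A do not reach 0 without adjustment for the number of probe sets.

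Protein synthesis gave 8 members, 3 of the plastid and 5 of the cytosol. The plastid genes were AT5G24490, a ribosome-associated protein of the small subunit, with a change of -0.071 (SE 0.061), AT2G43030, ribosomal protein L3, with 0.027 (SE 0.060), and AT1G29070, ribosomal protein L34, with 0.085 (SE 0.062). The cytosolic genes were AT5G20290 (ribosomal protein S8) with -0.034 (SE 0.087), AT1G52300 (L37) with -0.023 (SE 0.10), AT3G60245 (L37a) with 0.019 (SE 0.093), AT4G27090 (L14) with 0.028 (SE 0.085) and AT5G19510, a subunit of elongation factor 1B, with 0.00060 (SE 0.068). The median over the 8 was 0.0097, with none called, where 0.264% of all tested probe sets were. Of these changes, those of the 5 cytosolic genes changed sign when single arrays were left out.

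In each of the cytosolic translation genes the difference between genotypes was smaller than the larger range among the 3 arrays of a genotype. AT1G52300 had 11.71, 11.91 and 11.53 in wild type and 11.69, 11.57 and 11.82 in 35S:PCO1. In all 5 genes wild type replicate 2 lay above wild type replicate 3, by 0.10 to 0.38 (median 0.27), and 35S:PCO1 replicate 2 lay below 35S:PCO1 replicate 3, by values of the difference from -0.28 to -0.14. Their mean per array was 11.74, 11.84 and 11.59 in wild type and 11.74, 11.61 and 11.82 in 35S:PCO1. Over all 200 members, wild type replicate 2 lay above replicate 3 in 108, with a median difference of 0.012. In 175 of the 200 the difference between genotypes was below the larger within-group range, and no such share over all probe sets is given here. With 3 arrays per group, a difference of means mostly falls below that range where nothing changes. The count is therefore no result by itself. The 4 cold proteins and dehydrins had a similar order. Wild type replicate 2 lay above replicate 3 in 3 of them (median 0.19), and 35S:PCO1 replicate 2 lay below replicate 3 in all 4. The 7 genes of the cell surface and lipid role had the opposite order in wild type, with replicate 2 above replicate 3 in only 1. Replicate numbers carry no order, and what set these arrays apart was not tested.

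**Figure D3:**
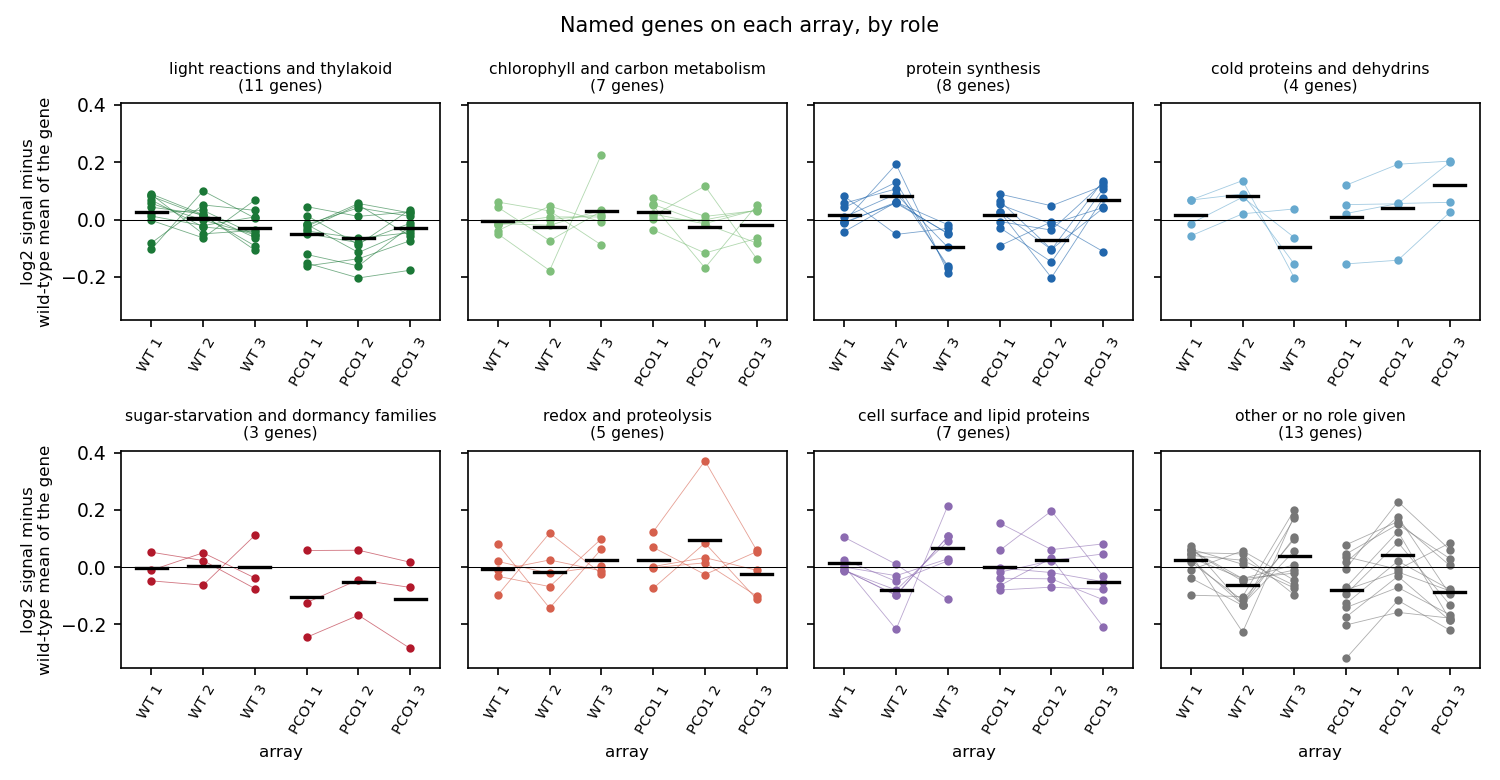
Each panel is a role, the x axis gives the 3 wild-type (WT) and 3 35S:PCO1 (PCO1) arrays, and the y axis the log2 signal of each gene minus its own wild-type mean, with points and thin lines for genes and black bars for the mean of the role. The bar of protein synthesis is highest on wild type replicate 2 (0.080) and lowest on wild type replicate 3 (-0.095). The bar of cold proteins and dehydrins is at 0.081 and -0.097 on these arrays, while that of the light reactions stays between -0.063 and 0.025 on all arrays.

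Cold-regulated proteins and dehydrins, which shield membranes and proteins as cells lose water or freeze, gave 4 members. COR15A, a chloroplast protein of freezing tolerance, had 11.85, 11.94 and 11.80 in wild type and 11.98, 12.06 and 12.07 in 35S:PCO1, with all 35S:PCO1 arrays above wild type (change 0.17, SE 0.063, adjusted p = 0.40). COR15B, its neighbour in gene order and the only such pair among the named members, had 11.73, 11.75 and 11.51 against 11.71, 11.72 and 11.86, with overlap (change 0.10, SE 0.082). The dehydrins COR47 and AT1G54410 (HIRD11) had changes of 0.046 (SE 0.058) and -0.091 (SE 0.097). Among the 11 list genes outside the members the change ran from -0.14 to 0.34, with none called. The highest of these, LEA4-5, a late embryogenesis abundant protein, had an SE of 0.31 and an SD of 0.77 in 35S:PCO1.

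Genes of families linked to sugar starvation and dormancy were among the members as well, though a response to darkness or sugar was not measured here. Of these, only AT3G15450 was on the list for darkness and sugar starvation. AT3G15450 and AILP1 encode aluminium-induced proteins with YGL and LRDR motifs, a family that includes sugar-repressed genes. AT3G15450 had 12.85, 12.91 and 12.83 in wild type and 12.92, 12.92 and 12.88 in 35S:PCO1, so the groups overlapped (change 0.044, SE 0.057). AILP1 had 12.34, 12.33 and 12.50 against 12.14, 12.22 and 12.10, with all 35S:PCO1 arrays below all wild-type arrays. Its change of -0.23 (SE 0.069, 95% interval -0.39 to -0.075, adjusted p = 0.308) was the most negative of the named members, and it did not pass. AT1G56220, of the dormancy and auxin-associated family, had -0.079 (SE 0.062). The other 5 genes matched on the dark and sugar starvation list had changes from -0.011 to 0.25, none called.

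Redox and proteolysis gave 5 members. AT3G11630, a plastid peroxiredoxin that reduces hydrogen peroxide, had a change of 0.033 (SE 0.071), ATHM2, thioredoxin m2 of the chloroplast, had 0.0079 (SE 0.055), and PRXR1, a secreted peroxidase, had -0.029 (SE 0.068). UBC28, a ubiquitin-conjugating enzyme, had -0.034 (SE 0.068). AT4G16190, a papain-type cysteine protease, had 11.91, 11.68 and 11.89 in wild type and 11.95, 12.20 and 11.88 in 35S:PCO1. Its change of 0.18 (SE 0.097, adjusted p = 0.566) was the most positive of the named members, the groups overlapped, and the mean was raised by 35S:PCO1 replicate 2.

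Proteins of the cell surface and lipids gave 7 members. AT2G45180 and AT2G10940 belong to the superfamily of lipid-transfer proteins and protease inhibitors. AT2G10940 had 12.47, 12.44 and 12.50 in wild type and 12.63, 12.53 and 12.55 in 35S:PCO1, without overlap (change 0.099, SE 0.058, adjusted p = 0.608), and AT2G45180 had 0.075 (SE 0.077). AT1G78040, of the Ole e 1 and extensin family, had 12.42, 12.35 and 12.42 against 12.32, 12.33 and 12.32, also without overlap (change -0.076, SE 0.056, adjusted p = 0.701). The cell wall protein ECS1, the DUF642 protein AT5G11420, the GDSL-type lipase AT1G29670 and the START-domain protein CP5 had changes from -0.081 to 0.017.

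The remaining 13 named genes had no shared role. CCL, whose transcript is short-lived and under clock control, had 12.98, 12.91 and 12.96 in wild type and 12.995, 13.10 and 12.98 in 35S:PCO1, with overlap (change 0.075, SE 0.061). AT1G25275 had 12.20, 12.15 and 12.07 against 11.82, 12.02 and 11.92, without overlap (change -0.22, SE 0.072, adjusted p = 0.345). AT1G62480, related to vacuolar calcium-binding proteins, had 11.69, 11.75 and 11.65 against 11.50, 11.54 and 11.52, without overlap (change -0.18, SE 0.058, adjusted p = 0.339). AT3G48140, a B12D family protein, had 12.04, 12.02 and 11.93 against 11.86, 11.93 and 11.83 (change -0.13, SE 0.061, adjusted p = 0.524). These groups were barely apart, with 11.932 in wild type replicate 3 and 11.925 in 35S:PCO1 replicate 2. The transporter-like AT5G14120 had -0.13 (SE 0.088), the remorin AT3G61260, a plasma membrane protein, had 0.033 (SE 0.089), and the PB1-domain protein AT4G05150 had -0.043 (SE 0.11). The changes of AT2G25510, AT5G02160, AT2G15960, AT4G32340, AT1G09310 and AT2G46220 lay between -0.060 and 0.095.

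None of the 142 members without a single gene name was called either, a count near the 0.264% of all tested probe sets and no result by itself. Their changes ran from -0.26 to 0.23 with a median of -0.0003, beside -0.018 for the 58 named genes, and the difference between these sets was not tested. The probe set at rank 1, which was not listed, had 13.78, 13.76 and 13.73 in wild type and 13.77, 13.79 and 13.74 in 35S:PCO1. The most negative change of all members was that of an unlisted probe set at rank 180, with 11.65, 11.56 and 11.73 in wild type and 11.40, 11.42 and 11.33 in 35S:PCO1 (change -0.26, SE 0.064, adjusted p = 0.217). The most positive was at rank 90, with 12.23, 12.11 and 12.22 against 12.43, 12.39 and 12.43 (change 0.23, SE 0.060). Neither pair of groups overlapped, and neither passed the test.

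Over all members, 37 had groups that did not overlap, 19 with 35S:PCO1 above (9.5%) and 18 with it below (9.0%), where the background over all probe sets was 5.68% above and 10.5% below. The 58 named genes held 2 of the former and 7 of the latter. Changes over 0.1 in size were seen in 49 members (24.5%, against 31.9% of all probe sets) and changes over 0.2 in 7 members (3.5%, against 7.87%). No member reached 0.3, as 2.28% of all probe sets did.

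The members also varied less between replicate arrays than all probe sets did. The median SD over 3 arrays was 0.064 in wild type and 0.050 in 35S:PCO1 for the members, against 0.087 and 0.073 for all probe sets. In the next 200 by rank it was 0.080 and 0.074, with a median size of change of 0.058 against 0.054 for the members. The next 200 held 1 called probe set, AT1G66100, a thionin gene at rank 353, whose change was -0.56 on the log2 scale (SE 0.068, limma adjusted p = 0.014), and the ranks from there to 1000 held 5, with changes of up to 2.16 in size. The 25 core hypoxia genes matched among the eligible probe sets lay lower in rank. Of these 25, 10 were called lower and none higher, with a median change of -0.73. AT4G27450, also on that list, is not among them, as it was left out, and it lay above the level of rank 200. Near the top of the scale an array can saturate, and quantile normalization within RMA holds the upper end alike on all arrays: the 200th highest eligible value lay between 11.54 and 11.57 on each of the 6. Both steps can shrink differences among the members, and their part in these values was not tested.

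**Figure D4:**
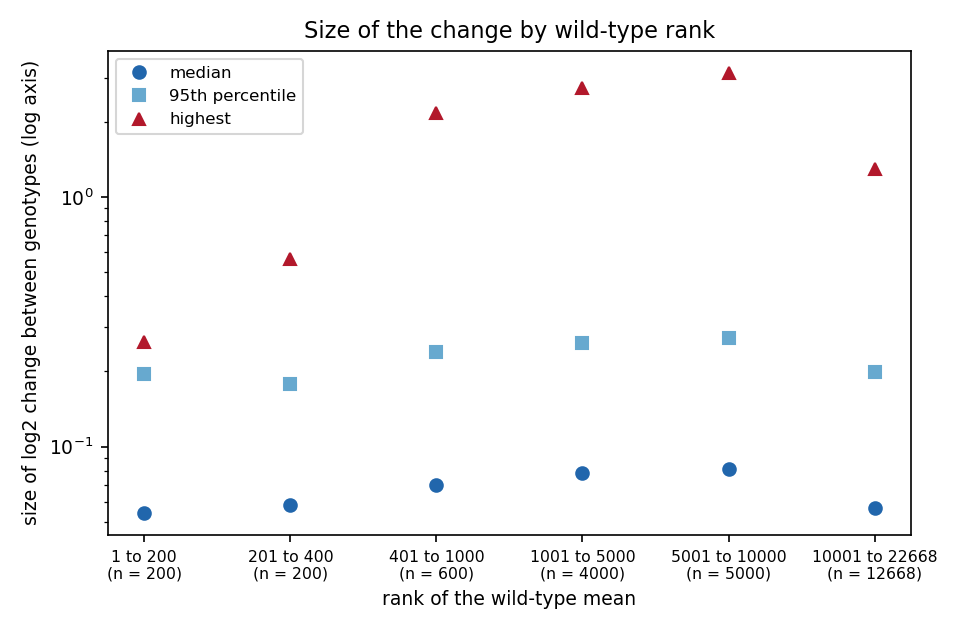
The x axis gives bands of wild-type rank with the number of eligible probe sets, and the log-scaled y axis the size of the log2 change between genotypes, as the median (circles), 95th percentile (squares) and highest value (triangles) of the band. The highest change is 0.26 in ranks 1 to 200, 0.56 in the next 200 ranks and 3.13 in the band that ends at rank 10000, while the medians stay between 0.054 and 0.082.

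Arrays correlated over the 200 members with r from 0.951 to 0.993 for the 6 pairs within a genotype and from 0.947 to 0.983 for the 9 pairs between genotypes, values that share the spread of levels between genes. The median size of the difference between arrays was 0.039 to 0.094 within and 0.064 to 0.112 between genotypes, so these ranges overlapped. No member lay more than 0.2 from its group mean on wild type replicate 1, against 6 on replicate 2 and 10 on replicate 3. Of the tissue markers, 1 of 4 leaf and 3 of 5 root genes could be matched, and no flower or seed gene. The leaf gene RCA is itself a member, chosen for its level, and so is no separate check of the labelled tissue. The root genes PYK10, EXPA7 and the peroxidase gene AT5G17820 had wild-type means of 7.07, 5.82 and 3.48, with changes of -0.18 (SE 0.097), -0.10 (SE 0.088) and 0.036 (SE 0.062), and none was called. Since probe sets differ in binding, these levels do not show how much root the samples held. Wild type replicate 2 had the highest PYK10 value, 7.30.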

How the data were processed

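The deposited table holds log2 values that the authors made with RMA, per the submitters' processing notes. The version, software and probe definition are not given in the sources used here. As a method, RMA (robust multi-array average) subtracts background, equalises quantiles across arrays and combines probes by median polish. The labels do not say whether replicates were separate plants, so the spread behind the p-values is that among these samples and may be technical.

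Of 22810 probe sets, 64 controls were left out. The platform annotation, with symbols refreshed by gene identifier from the RefSeq gene table, gave 13513 of the 22746 tested probe sets 1 gene, 503 several and 8730 none. Removed from the choice of members were 77 plastid-encoded probe sets, 10 of them above the level of rank 200, and AT4G27450. The members and lists were chosen with earlier results of these data known.

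A linear model with genotype as its only term was fitted in R 4.3.3 by limma 3.58.1 (lmFit, eBayes). Tests were 2-sided, and p-values were adjusted by Benjamini-Hochberg over every probe set tested; the procedure was tested on simulated data. Genes to name were the 4 highest of each class, called members, the 10 most positive and negative changes and the 3 probe sets on either side of rank 200; the other named members were added after their values were seen, as was their role. Other settings tried were a block for the replicate number, median centring, repeated quantile normalization, trend and robust eBayes, array weights, a filter at the 40th percentile, other thresholds, other choices of members and each array left out in turn. The number of arrays limits the precision.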

Additional observations from a re-analysis of the deposited data

Results flagged for a closer look

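A control probe set outside the comparison, the 3 prime end of the spiked bacteriophage P1 cre control, was as bright as the members, and every 35S:PCO1 array of it lay above every wild-type array, with means 0.0816 apart on the log2 scale. The wild-type values were 12.67, 12.67 and 12.63, against 12.70, 12.82 and 12.69. This was 1 of 8 control probe sets above the level of rank 200, and 5.68% of all tested probe sets had the same order.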

How the results depend on the processing

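No member was called, higher or lower, in any of the 12 alternative fits at an adjusted p under 0.05, or in the fit without alternatives at thresholds of 0.01 and 0.1. The lowest adjusted p of a member in any fit was 0.0599, with array weights, which would pass 0.1. All changes of members stayed within 0.34 in size. The 400 highest probe sets held 1 called lower. With the replicate number as a block, no member was called, the median change was -0.0033, and 26 of all probe sets were called in place of 60. Deviations of same-numbered arrays from their group means correlated over all probe sets at r = -0.0588, -0.221 and -0.258. Over the members r was -0.304, -0.526 and -0.679. Same-numbered arrays thus did not deviate in the same direction, and over the members they tended to deviate in opposite directions. Deviations from a group mean cancel within the group, so these r values are not independent. With 3 arrays per group they cannot tell whether the samples were collected in pairs. Array weights called 255 of all probe sets, and leaving out 1 array called 23 (wild type replicate 1) to 60 (wild type replicate 2), with 24 and 33 when the first or the third 35S:PCO1 array was dropped. With 1 array left out, the count of intervals ran from 197 to 200 and the median change from -0.0074 to 0.0009. The median change, -0.0033, was -0.0111 after repeated quantile normalization, 0.0089 for the top 200 by 35S:PCO1 and -0.0184 for the named members, and the cause was not tested.

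Of 696 alternative values of the 58 named genes, 642 kept the sign, and none was called. With array weights the sign turned for ECS1 (-0.04), AT4G01150 (-0.0393), PSBY (0.0517), AT5G20290 (0.0039), PSBW (-0.0386), cICDH (0.0072) and AT3G61260 (-0.0035). It turned for AT4G01150 (-0.0058) and HPR (0.0022) after repeated quantile normalization and for HPR (0.0059) after centring. With 1 array left out, 25 genes had values of both signs, with ranges as follows: AT2G25510 (-0.0115 to 0.063), ECS1 (-0.0396 to 0.0685), PRXR1 (-0.0625 to 0.0206), AT4G01150 (-0.0127 to 0.0556), AT2G26500 (-0.0596 to 0.0268), CP5 (-0.0722 to 0.0296), PSBY (-0.0654 to 0.0364), AT3G11630 (-0.0157 to 0.0922), UBC28 (-0.0933 to 0.0049), ATPC1 (-0.0051 to 0.0608), AT5G20290 (-0.0875 to 0.0513), PSBW (-0.0351 to 0.0631), HPR (-0.0617 to 0.0656), cICDH (-0.1141 to 0.0883), ATHM2 (-0.0044 to 0.0202), AT2G46220 (-0.1596 to 0.0439), AT1G52300 (-0.1157 to 0.0728), AT3G61260 (-0.0387 to 0.097), AT3G60245 (-0.0666 to 0.0834), AT1G29670 (-0.1902 to 0.026), PORB (-0.0684 to 0.0494), TPI (-0.0004 to 0.0162), AT4G05150 (-0.1262 to 0.0575), AT5G19510 (-0.0319 to 0.0528), AT4G27090 (-0.0535 to 0.0809). The cause was not tested. The other 33 kept their sign. With 3 arrays per group, changes under about 0.12 to 0.29, the reach of the intervals, were not resolved.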
